A study of Mus musculus with 18 samples.

Results

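Transcript levels of 10 genes of the epithelial-mesenchymal transition (EMT) were followed in mouse embryonic stem cells on 18 oligonucleotide arrays. The genes were 7 transcription factors (Snai1, Snai2, Twist1, Twist2, Zeb1, Zeb2 and Prrx1), the cadherins Cdh1 and Cdh2, and Vim, which encodes vimentin. They were taken as all probe sets of the array annotated to these symbols alone, which were 26 of 45101 probe sets and 10 of 18193 genes. Zeb1 had 4 probe sets, Zeb2 had 5, Prrx1 had 6, Vim had 3, Snai2 and Cdh2 had 2 each, and the other 4 genes had 1 each. Each gene is described by its brightest probe set over all arrays, with the others beside it.

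In an EMT, cells held together in a sheet by E-cadherin, the product of Cdh1, lose these contacts and take on a migratory form with N-cadherin (Cdh2) and vimentin filaments. The zinc finger proteins of the Snail and Zeb families bind E-box motifs in the Cdh1 promoter and repress it, while the Twist proteins are basic helix-loop-helix factors and Prrx1 is a homeobox factor of mesenchyme. In the embryo such a transition takes place at the primitive streak and again when neural crest cells leave the neural tube. Embryonic stem cells express abundant E-cadherin, which holds their colonies together.

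There were 6 groups of 3 arrays, each array labelled as a separate biological replicate. In 12 arrays, CGR8 cells grown in serum with LIF had received empty vector, a Foxd3 plasmid, a CA-NFATc3 plasmid or both of these together. Foxd3 is a forkhead factor of pluripotent and neural crest cells, NFATc3 is a factor that enters the nucleus when calcineurin is active, and CA is commonly short for constitutively active. The other 6 arrays held Foxd3fl/fl:Cre-ERT cells, in which tamoxifen lets Cre enter the nucleus and delete the floxed Foxd3, after 0 days (labelled DMSO) or 2 days of tamoxifen. Both of these groups carry the floxed alleles and Cre-ERT, and no group of cells without the floxed alleles was given tamoxifen, so the deletion and the drug itself cannot be told apart. The labels give the line CGR8 for these cells as well. The sources used here do not state which promoter drives Cre-ERT or the plasmids, how many clones there were, how long after transfection RNA was taken, or whether feeder cells were used.

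Promoters of 4 genes whose levels differed between groups are shown with the motif letters read in them. The RefSeq promoter table of build GRCm38.p6 held 6 of the 10 genes (Snai1, Twist1, Twist2, Zeb2, Prrx1 and Vim). The 250 bases before the annotated start were searched on both strands for 4 motifs. The core to which NFAT factors bind was read as GGAAA. The general E-box was read as CANNTG. The form of the E-box that Snail and Zeb proteins prefer was read as CACCTG, and its matches are also matches of the general E-box. The forkhead motif was read as TGTTTAC. Each sequence below runs 5′ to 3′ on the gene's strand, with capitals for the NFAT core on either strand.
Twist1, chr12:33957421-33957670, + strand: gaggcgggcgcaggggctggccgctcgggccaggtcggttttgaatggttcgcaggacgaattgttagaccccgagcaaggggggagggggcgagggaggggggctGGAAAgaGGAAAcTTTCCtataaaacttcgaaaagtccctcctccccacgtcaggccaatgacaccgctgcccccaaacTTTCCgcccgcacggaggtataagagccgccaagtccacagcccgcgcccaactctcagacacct
Twist2, chr1:91801211-91801460, + strand: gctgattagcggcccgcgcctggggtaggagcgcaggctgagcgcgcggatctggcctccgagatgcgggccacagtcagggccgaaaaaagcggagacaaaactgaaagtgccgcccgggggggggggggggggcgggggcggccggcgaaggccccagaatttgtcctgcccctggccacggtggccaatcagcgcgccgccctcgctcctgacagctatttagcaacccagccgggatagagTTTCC
Prrx1, chr1:163313651-163313900, - strand: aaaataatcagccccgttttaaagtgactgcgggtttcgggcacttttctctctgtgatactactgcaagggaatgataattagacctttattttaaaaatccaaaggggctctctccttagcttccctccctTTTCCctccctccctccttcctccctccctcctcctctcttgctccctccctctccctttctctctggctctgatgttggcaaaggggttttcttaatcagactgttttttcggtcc
Vim, chr2:13574061-13574310, + strand: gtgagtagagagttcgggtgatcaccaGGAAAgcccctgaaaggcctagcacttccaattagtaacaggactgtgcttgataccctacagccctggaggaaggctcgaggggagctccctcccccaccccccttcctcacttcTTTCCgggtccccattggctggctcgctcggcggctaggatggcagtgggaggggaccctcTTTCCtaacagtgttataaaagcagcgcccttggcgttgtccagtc
The Twist1 window held 4 NFAT cores, which begin at positions -144, -137, -131 and -65 from the start. Of 32536 promoter windows of this length in the table, 55.7% held at least 1 such core and 1.59% held at least 4. The Vim window held 3 cores, and those of Twist2 and Prrx1 held 1 each. None of these 4 windows held an E-box, which was found in 66.2% of all windows, nor the forkhead letters, which were found in 3.17%. The Snai1 window held 1 CACCTG at -126, a motif that 17.3% of all windows held. A match describes letters only and is not evidence of binding.

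The 12 arrays of transfected cells had median signals of 55.2 to 67.1, and the 6 arrays of Foxd3fl/fl:Cre-ERT cells 73.0 to 80.7. Across probe sets, replicate arrays had an r of 0.981 to 0.988. Signals are MAS5 values on a linear scale, and the number of arrays limits their precision. The 7 embryonic stem cell markers (Pou5f1, Nanog, Sox2, Zfp42, Utf1, Esrrb and Dppa5a) were above the floor of 65.8, the median of all deposited values, in every group. Foxd3 averaged 219 ± 25.9 (SD, n = 3) with DMSO and 31.5 ± 29.6 with tamoxifen, in the direction of its label. With the plasmids it went against the label, at 443 ± 55.9 with the vector, 237 ± 5.95 on the arrays labelled Foxd3 and 234 ± 37.7 on those labelled Foxd3 and CA-NFATc3. The sources used here do not state whether this probe set detects the plasmid's transcript, so these groups are called by their labels. Rcan1, a calcineurin and NFAT target, averaged 1196 ± 60.6 with the vector, 3702 ± 776 with CA-NFATc3 and 1441 ± 62.7 with both plasmids. Against the vector it passed with CA-NFATc3 (adjusted p = 2.05e-07, limma) but not with both plasmids (adjusted p = 0.224). With both plasmids it was lower than with CA-NFATc3 alone (adjusted p = 2.35e-06). Nfatc3 itself averaged 1581 ± 31.4 with the vector and 1732 ± 58.5 with CA-NFATc3, a difference that did not pass (adjusted p = 0.352, limma).

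**Figure D1:**
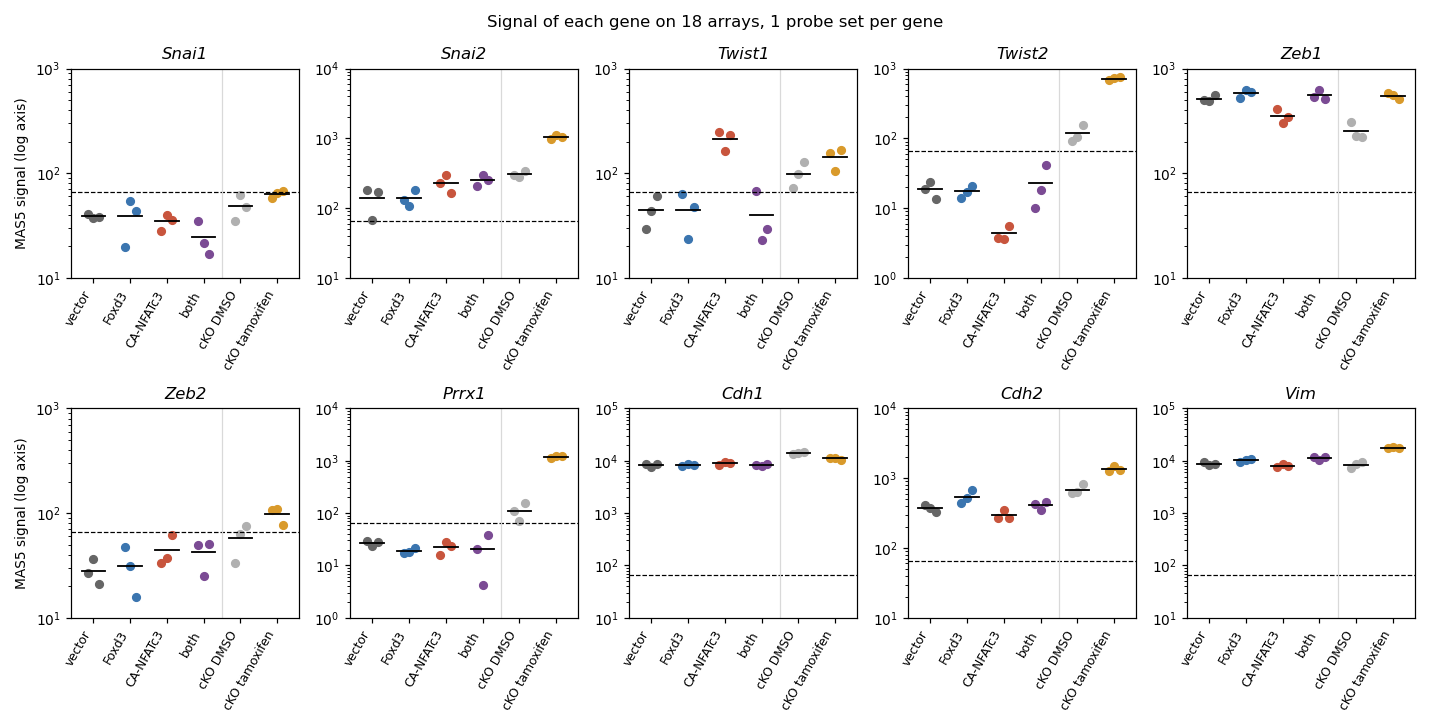
MAS5 signal (log axis, with its own range per gene) of the 10 genes on each of the 18 arrays, 1 panel per gene and 1 column per group, with points for arrays, a bar for the group mean and a dashed line at 65.8. The tamoxifen arrays lay highest for Prrx1, Twist2, Snai2, Cdh2 and Vim, and for Twist1 the CA-NFATc3 group had the highest mean (213) but overlapped with tamoxifen.

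Tamoxifen for 2 days was set against DMSO to ask what changes when Foxd3 is deleted. Prrx1, Twist2, Snai2, Zeb1, Cdh2 and Vim rose and Cdh1 fell. Snai1 was not tested, and neither Twist1 nor the brightest Zeb2 probe set passed. In total, 6 of the 9 genes tested rose and 1 fell at an adjusted p under 0.05 in limma. Among all 12093 genes tested, 34.4% were called, 17.5% higher and 16.9% lower. The median log2 change was 1.05 over the 9 genes and -0.01 over all genes tested. Of the 26 probe sets, 19 had all tamoxifen arrays above all DMSO arrays, 1 had them below and 6 overlapped, where 29.0% of all 45037 probe sets other than controls did not overlap in either direction. A gene was tested if at least 3 arrays of the fit reached the floor, and 6 of the 19 probe sets tested here (3 of Zeb2 and 3 of Prrx1) did so on tamoxifen arrays alone, so that only their tamoxifen signals let them into the test. Of the other 13, 10 rose and 1 fell, where 28.3% of all probe sets tested were called.

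Among the transcription factors, the brightest probe set of Prrx1 rose. Its signal was 111, 69.4 and 156 on the DMSO arrays and 1116, 1231 and 1243 on the tamoxifen arrays, well apart. The log2 change of signal + 32 was 3.13 ± 0.18 (SE), an 8.78-fold rise on that scale (adjusted p = 1.88e-07, limma). Of its other 5 probe sets, 3 also rose. All 3 were under the floor on every DMSO array, so only their tamoxifen signals let them into the test. They rose by at least 4.79-fold, 3.11-fold and 2.82-fold when the DMSO arrays are set to the floor (adjusted p over probe sets of 6.88e-06, 5.16e-05 and 0.000192). The last 2 stayed under the floor on all 6 arrays, and with the mean of the 6 probe sets the change was 1.51 (adjusted p = 1.91e-05).

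Twist2, a basic helix-loop-helix factor of dermal and limb mesenchyme, had signals of 92.0, 106 and 156 with DMSO. With tamoxifen they were 675, 730 and 746, and no array of either group came near the other group. The change was 2.34 ± 0.15, or 5.07-fold on the scale of signal + 32 (adjusted p = 4.16e-07). Its paralog Twist1, known for its part in the neural crest and cranial mesenchyme, did not pass. Its signals were 71.5, 97.5 and 127 with DMSO and 156, 105 and 166 with tamoxifen, which overlap, with a change of 0.42 ± 0.20 (adjusted p = 0.137).

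Snai2, the Snail family factor also called Slug, had signals of 299, 275 and 336 with DMSO and 974, 1122 and 1050 with tamoxifen. The groups did not overlap, and the change was 1.69 ± 0.10, or 3.22-fold (adjusted p = 2.01e-07). The suffix x in the name of this probe set marks probes that may also match other transcripts. The other Snai2 probe set, at 72.9, 116 and 79.6 with DMSO and 179, 261 and 205 with tamoxifen, rose as well, by 1.02 ± 0.18 (adjusted p over probe sets = 0.00142). Snai1, the founding member of the family, stayed near the floor. It read 34.7, 61.8 and 47.9 with DMSO and 58.5, 64.4 and 68.1 with tamoxifen, with only 1 array above the floor.

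Zeb1 had signals of 308, 228 and 220 with DMSO and 579, 553 and 518 with tamoxifen. All tamoxifen arrays lay above the DMSO arrays, and the change was 1.05 ± 0.13, or 2.07-fold (adjusted p = 7.81e-05). The call rests on this probe set: the other 3 were too dim to be tested, at 67.6 or less on all 6 arrays, and with the mean of the 4 the adjusted p was 0.0746. Zeb2 also lay higher with tamoxifen, but its brightest probe set was not called. That probe set read 33.3, 63.4 and 75.5 with DMSO and 107, 110 and 77.7 with tamoxifen, which do not overlap. The change of 0.56 ± 0.22 did not pass (adjusted p = 0.0719, limma). It passed without the third DMSO array (adjusted p = 0.0372) and with the mean of the 5 Zeb2 probe sets (adjusted p = 0.00052). That mean takes in 3 probe sets that reached the floor on tamoxifen arrays alone and 1 that never reached it.

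Of the other Zeb2 probe sets, 3 rose from under the floor on every DMSO array, so only their tamoxifen signals let them into the test. The highest of them read 40.3, 56.1 and 39.0 with DMSO and 167, 221 and 189 with tamoxifen, a rise of at least 2.9-fold (adjusted p over probe sets = 5.83e-05). The other 2 rose by at least 2.26-fold and 1.73-fold (adjusted p over probe sets of 5.87e-05 and 0.00309). The fifth was under the floor on all 6 arrays, with its tamoxifen arrays above its DMSO arrays.

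**Figure D2:**
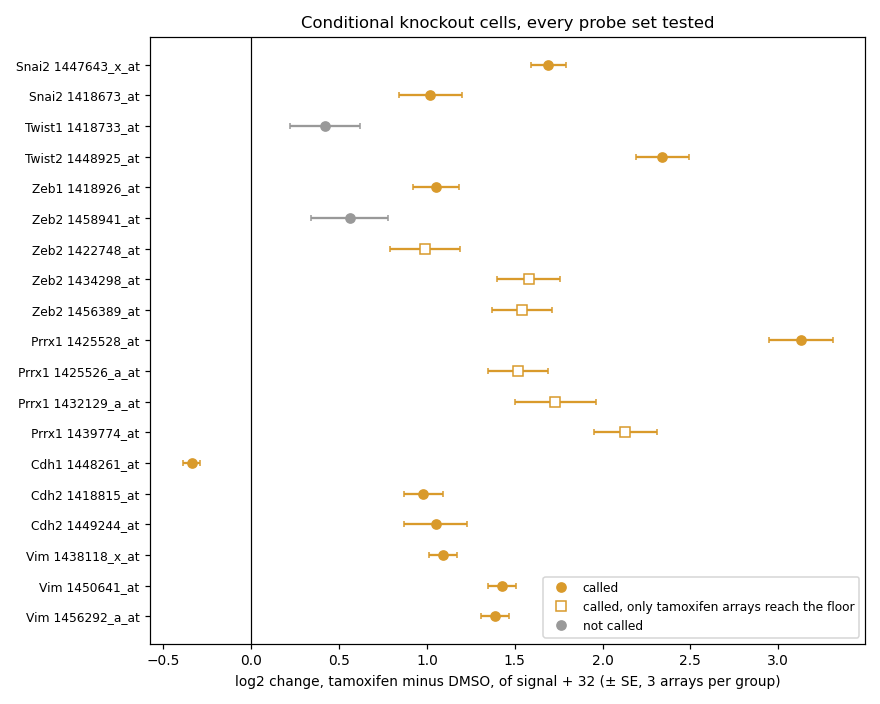
Log2 change of signal + 32 between tamoxifen and DMSO for each member probe set tested, with bars of 1 SE, in orange where the adjusted p over probe sets was under 0.05 and grey otherwise. Open squares are the 6 probe sets that reached the floor on tamoxifen arrays alone. All probe sets except that of Cdh1 lay above 0, with Prrx1 farthest out at 3.13.

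The cadherins moved in opposite directions. Cdh1 had signals of 13259, 13951 and 14887 with DMSO and 11552, 11163 and 10532 with tamoxifen. The groups did not overlap, but the fall was small, at -0.34 ± 0.05 or 1.26-fold (adjusted p = 5e-04), and no array read under 10532. Cdh2 had signals of 613, 631 and 814 with DMSO and 1287, 1514 and 1329 with tamoxifen. It rose by 0.98 ± 0.11, or 1.97-fold (adjusted p = 4.03e-05), and its other probe set rose by 1.05 ± 0.18 (adjusted p over probe sets = 0.00135). The Vim signals were 7197, 8798 and 9365 with DMSO and 17456, 18428 and 17771 with tamoxifen. All 3 Vim probe sets rose, this one by 1.09 ± 0.08, or 2.12-fold (adjusted p = 1.18e-06). The other 2 rose by 1.43 ± 0.08 and 1.39 ± 0.08 (adjusted p over probe sets of 1.42e-07 and 2.76e-07).

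Markers of other cell types moved with these changes. Among all genes tested in this fit, 17.5% were called higher and 16.9% lower. The summed signal of 8 fibroblast markers (Col1a1, Col1a2, Col3a1, Thy1, Pdgfrb, Dcn, Lum and Postn) was 2553 to 3152 with DMSO and 15840 to 18043 with tamoxifen, and 8 of 8 rose. Lum alone was under the floor on all DMSO arrays, so only its tamoxifen signals let it into the test. None of the 8 was under the floor on all tamoxifen arrays. The 9 markers of primitive and parietal endoderm summed to 1182 to 1343 with DMSO and 2945 to 3142 with tamoxifen. Of the 7 tested, 4 rose, while Gata4 and Foxa2 were under the floor on all tamoxifen arrays. The 7 embryonic stem cell markers summed to 70352 to 72322 with DMSO and 65346 to 69318 with tamoxifen, and Pou5f1 (-0.19 ± 0.06, adjusted p = 0.0186) and Sox2 (-0.17 ± 0.04, adjusted p = 0.00971) fell. The 7 neural crest markers, of which Ets1 rose, summed to 916 to 926 and 1206 to 1517, with Sox10, Pax3, Tfap2b and Sox9 under the floor on all tamoxifen arrays. The 8 trophoblast markers summed to 6318 to 8458 and 7699 to 8085, with 1 of 6 tested higher and 2 lower, and the 8 mesoderm markers to 527 to 667 and 507 to 660, with 0 of 3 tested called. The signal ratio of 3' to 5' actin control probe sets was 2.06 to 2.24 with DMSO and 1.89 to 1.9 with tamoxifen. The part of these in the changes of the 10 genes was not tested. In bulk RNA, more cells of a type and more RNA of a gene per cell cannot be told apart.

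The genes around the EMT factors are given as lists, counted over the same fit. There, 17.5% of all genes tested were called higher and 16.9% lower, and counts near these shares are not read as a response of a list. Of 19 ligands, receptors and Smads tested, 5 rose and 1 fell, with a median of 0.14. Wnt5a, a non-canonical Wnt ligand, rose by at least 7.4-fold from under the floor on every DMSO array (log2 change 2.52 ± 0.14, adjusted p = 1.6e-07). Only its tamoxifen signals let it into the test. Tgfbr2, the type II TGF-beta receptor, rose by 1.83 ± 0.11 (adjusted p = 3.61e-07) from a mean signal of 271 to 1043, and Pdgfra, a receptor of mesenchyme and endoderm, by 1.33 ± 0.14 (adjusted p = 2.31e-05). Of 21 partners, corepressors and turnover factors, 6 rose and 6 fell (median -0.08). Id3, which binds and blocks basic helix-loop-helix factors, rose by 1.37 ± 0.12 (adjusted p = 6.18e-06), and Tcf12, an E protein with which such factors pair, by 0.47 ± 0.06 (adjusted p = 8.39e-05). Lats2, Id2, Fbxw7 and Gsk3b also rose, while Sin3a, Fbxl14, Ezh2, Kdm1a, Ctbp1 and Hdac2 fell. Of 13 other EMT-linked factors, 3 rose and 1 fell (median -0.03), led by the chromatin protein Hmga2 at 1.14 ± 0.09 (adjusted p = 1.55e-06).

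On the epithelial side, of 20 tight junction, desmosome and simple keratin genes, 13 fell and 0 rose, with a median of -0.37. Krt19, a simple epithelial keratin, fell by 0.90 on the log2 scale (SE 0.19, adjusted p = 0.00404) and Cldn7, a claudin of tight junctions, by 0.66 (SE 0.09, adjusted p = 0.000164). Of 9 catenins and adherens junction partners, 2 fell, Epcam (-0.40 ± 0.05, adjusted p = 6.6e-05) and Afdn. Of 10 epithelial maintenance factors 2 fell, Klf4 (-0.31 ± 0.04, adjusted p = 0.000275) and the splicing regulator Esrp1 (-0.29 ± 0.06, adjusted p = 0.00385). The medians of these lists were -0.06 and -0.14. Among all genes tested, 16.9% were called lower.

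On the mesenchymal side, 19 of 23 genes of matrix, cytoskeleton and proteases rose and 0 fell, with a median of 1.27. Among all genes tested, 17.5% were called higher and 16.9% lower. Mmp3, a matrix metalloprotease, rose by 3.76 ± 0.12 (adjusted p = 1.83e-09), from a mean signal of 237 to 3601. Postn, which encodes the matrix protein periostin and is also on the fibroblast list, rose by 3.49 ± 0.10 (adjusted p = 1.28e-09). Col1a1, Col1a2 and Col3a1 are on both lists as well, so the counts of the lists are not independent. Of 7 other cadherins 2 rose, Cdh13 and Cdh11, a cadherin of mesenchyme, with a mean signal of 174 with DMSO and 1975 with tamoxifen (3.30 ± 0.14, adjusted p = 2.13e-08). Of 10 other intermediate filament genes, 2 rose and 3 fell, among them the lamins Lmna (0.90 ± 0.09, adjusted p = 2.07e-05) and Lmnb1 (-0.63 ± 0.05, adjusted p = 4.91e-06).

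**Figure D3:**
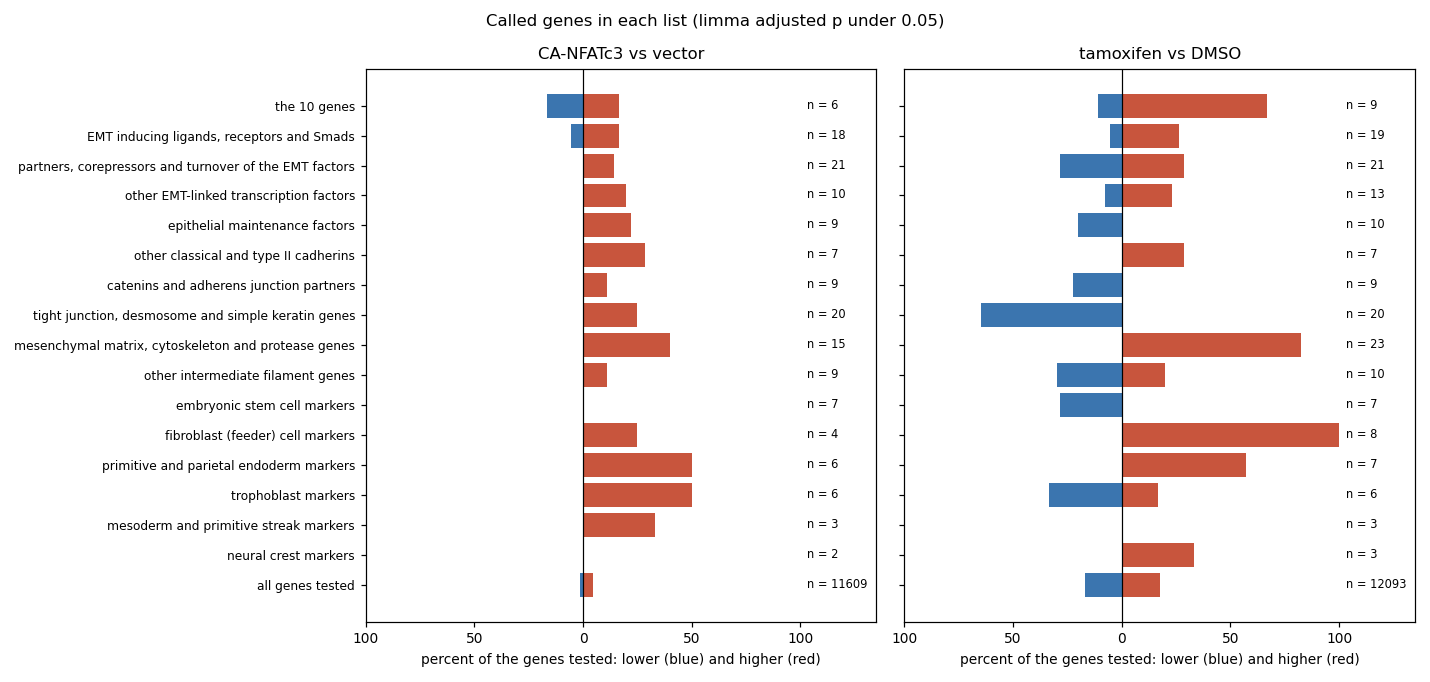
Percent of the tested genes of each list called higher (red, to the right) or lower (blue, to the left) at an adjusted p under 0.05, for CA-NFATc3 against vector and tamoxifen against DMSO, with the number tested at the right and all genes tested at the bottom. With tamoxifen the mesenchymal matrix list stood at 19 of 23 higher and the tight junction list at 13 of 20 lower, where 17.5% and 16.9% of all genes were called in those directions.

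CA-NFATc3 was set against the empty vector to ask what the active NFAT factor changes. Twist1 rose and Zeb1 fell, and the other 4 genes tested were not called. Among all 11609 genes tested in the transfected cells, 5.86% were called, 4.62% higher and 1.24% lower. The 13 probe sets of Snai1, Twist2, Zeb2 and Prrx1 were under the floor on all 12 arrays of transfected cells, so these genes were not tested there. In all, 10 of the 26 probe sets were tested.

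Twist1 had signals of 29.3, 43.8 and 60.7 with the vector, all under the floor, and 247, 163 and 230 with CA-NFATc3. It rose by at least 3.19-fold with the vector arrays set to the floor (log2 change 1.68 ± 0.27, adjusted p = 0.000837). The gene entered the test through the 3 CA-NFATc3 arrays and 1 array with both plasmids. Zeb1 had signals of 501, 486 and 557 with the vector and 414, 304 and 344 with CA-NFATc3. The groups did not overlap, and the fall was -0.51 ± 0.12, or 1.42-fold (adjusted p = 0.0182). It did not pass without the third vector array (adjusted p = 0.0966), without the second or the third CA-NFATc3 array (0.0912 and 0.0837), or with the mean of the 4 Zeb1 probe sets (0.777), of which 3 were not tested.

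The cadherins and vimentin were not called with CA-NFATc3. Cdh1 read 8851, 7768 and 8633 with the vector and 8376, 9695 and 9125 with CA-NFATc3 (0.11 ± 0.07, adjusted p = 0.516). Cdh2 read 409, 371 and 330 with the vector and 272, 352 and 269 with CA-NFATc3 (-0.29 ± 0.16, adjusted p = 0.407). Both overlapped between the groups. The changes were -0.11 ± 0.08 for Vim (adjusted p = 0.54) and 0.67 ± 0.27 for Snai2 (adjusted p = 0.205), again with overlapping arrays. The Snai2 vector arrays were 179, 67.0 and 168, and its CA-NFATc3 arrays 229, 299.8 and 163.

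Here too markers of other cell types moved with the groups. For CA-NFATc3 against vector, 4.62% of all genes tested were called higher and 1.24% lower. The summed signal of the endoderm markers was 449 to 584 with the vector, 939.8 to 1374 with CA-NFATc3 and 491 to 599 with both plasmids, with Sox17, Dab2 and Srgn higher with CA-NFATc3 among 6 tested and Foxa2 under the floor on all 3 of its arrays. The trophoblast markers summed to 3060 to 3729, 4180 to 4629 and 2976 to 3018, with Elf5, Eomes and Hand1 higher with CA-NFATc3 among 6 tested, and Cdx2 and Gata3 under the floor on all 3 of its arrays. Srgn and Elf5 entered the test through their CA-NFATc3 arrays alone. The mesoderm markers, of which Eomes rose, summed to 312 to 517, 709 to 895 and 448 to 644, with Mixl1, Tbx6, Hand2, Msgn1 and Fgf8 under the floor with CA-NFATc3. Eomes is on the trophoblast list as well, so the sums of these lists are not independent. The fibroblast markers summed to 329 to 394, 547 to 720 and 834 to 920. Of these, Col1a1, Dcn, Lum and Postn were under the floor on every array of the transfected cells. The stem cell markers summed to 80322 to 89534, 78672 to 82614 and 71694 to 78819, with 0 of 7 called for CA-NFATc3 against vector. The part of all these in the values of Twist1, Zeb1 and Vim was not tested.

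Among the genes around the EMT factors, lists of both sides held rises with CA-NFATc3, where 4.62% of all genes were called higher. Of 15 mesenchymal genes tested 6 rose and 0 fell (median 0.33), and of 20 tight junction, desmosome and keratin genes 5 rose and 0 fell (median 0.37). The collagen gene Col5a2 rose by at least 5.26-fold from under the floor (2.58 ± 0.24, adjusted p = 5.94e-06), Col3a1 by at least 3.29-fold, and the hyaluronan receptor gene Cd44 by at least 2.89-fold. A gene under the floor on every vector array entered the test only through arrays of other groups. On the epithelial side Krt19 rose from a mean signal of 92.9 to 594 (2.29 ± 0.26, adjusted p = 3.72e-05), Cldn7 from 383 to 1209 (1.59 ± 0.16) and Ocln, which encodes occludin, from 326 to 758 (1.13 ± 0.12). These genes were thus called in the opposite direction to that with tamoxifen, where Krt19, Cldn7 and Ocln fell.

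Of 18 ligands, receptors and Smads tested with CA-NFATc3, 3 rose and 1 fell, with Bmp2 up by at least 1.55-fold (1.32 ± 0.20, adjusted p = 0.000522). Of 10 other EMT-linked factors 2 rose, Eomes, a T-box factor of the primitive streak and trophoblast (1.97 ± 0.20, adjusted p = 9.96e-06), and Hmga2 (0.74 ± 0.13, adjusted p = 0.00198). Of 21 partners 3 rose, Hand1, Id2 and Tcf12. Epithelial maintenance factors had 2 of 9 higher, led by Elf5, which rose by at least 2.35-fold. Elf5 was under the floor on all arrays of the other transfected groups, so only its CA-NFATc3 signals let it into the test. Among the other cadherins 2 of 7 were higher (Cdh13 and Cdh4), among the catenins 1 of 9 (Epcam), and among the intermediate filament genes 1 of 9 (Plec).

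**Figure D4:**
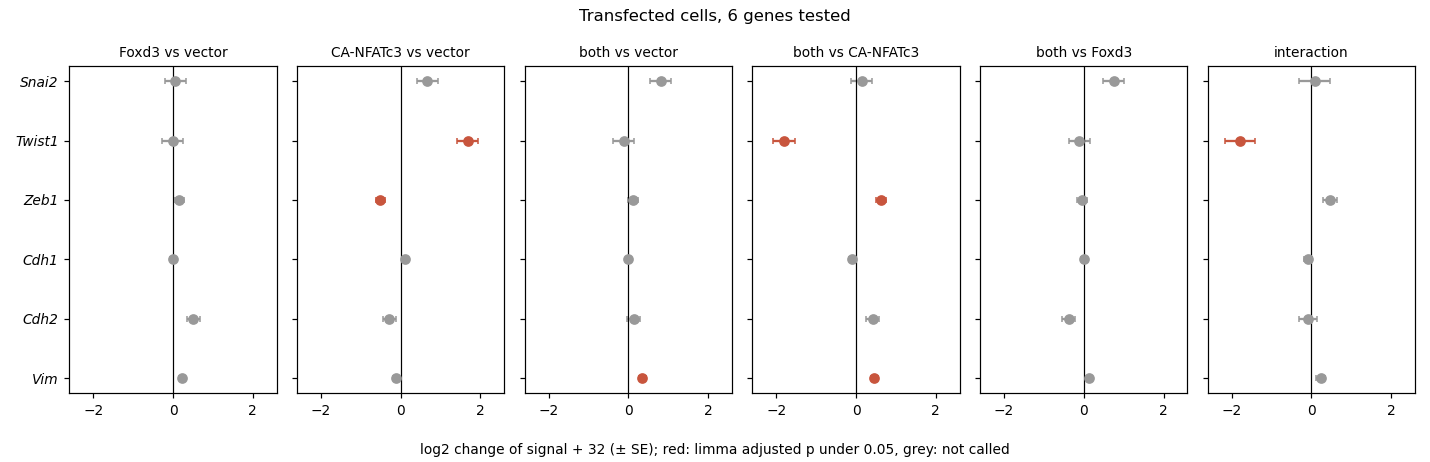
Log2 change of signal + 32 with bars of 1 SE for the 6 genes tested in the transfected cells, 1 panel for each comparison, in red where the adjusted p was under 0.05 and grey otherwise. Twist1 lay at 1.68 for CA-NFATc3 against vector and at -1.80 for both plasmids against CA-NFATc3.

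With both plasmids, the Twist1 signals overlapped with those of the vector arrays. They were 67.8, 22.9 and 29.5, with 1 array just above the floor, against 247, 163 and 230 with CA-NFATc3 alone. The CA-NFATc3 arrays were higher by at least 3.16-fold (both against CA-NFATc3, log2 change -1.80 ± 0.27, adjusted p = 0.000549). Zeb1 moved the other way. Its signals with both plasmids were 533, 631 and 517, all above those with CA-NFATc3 alone, a difference of 0.62 ± 0.12 (adjusted p = 0.00463) that did not pass with the mean of the 4 Zeb1 probe sets (adjusted p = 0.153). In this comparison 2 of the 6 genes tested were higher and 1 lower, where 6.12% of all genes were called.

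Vim was the second gene that was higher with both plasmids. It read 11835, 10156 and 11590 with both plasmids, 7731, 8685 and 7939 with CA-NFATc3 alone and 9668, 8231 and 8514 with the vector. The arrays with both plasmids lay above those of either other group. The difference from CA-NFATc3 was 0.46 ± 0.08 (adjusted p = 0.00152), and the other 2 Vim probe sets passed as well (adjusted p over probe sets of 0.0193 and 0.0312), where 3.92% of all probe sets tested were called. Against the vector Vim rose by 0.35 ± 0.08, or 1.27-fold (adjusted p = 0.016), and was the only one of the 6 genes called, with 4.82% of all genes called. That call was lost without the second or the third vector array (adjusted p = 0.0735 and 0.0774) or without the first or the third array with both plasmids (0.0666 and 0.0776). The other 2 Vim probe sets did not pass against the vector (adjusted p over probe sets of 0.0662 and 0.0834), with their arrays apart in the same direction.

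Snai2 read 209, 303 and 249 with both plasmids, above every vector array, but the change of 0.81 ± 0.27 did not pass (adjusted p = 0.107). Against the vector Cdh1 differed by 0.00 ± 0.07, Cdh2 by 0.13 ± 0.16, Zeb1 by 0.11 ± 0.12 and Twist1 by -0.12 ± 0.27 (adjusted p of 0.997, 0.728, 0.697 and 0.872). Of the mesenchymal genes 6 of 15 were higher than with the vector and 0 lower (median 0.47), led by Col5a2 (2.68 ± 0.24, adjusted p = 8.87e-06) and Col1a2 (2.63 ± 0.26, adjusted p = 1.45e-05). Both were under the floor on every vector array, so only arrays of other groups let them into the test. Among all genes tested, 3.48% were called higher and 1.34% lower than with the vector, and 3.69% lower than with CA-NFATc3 alone. Of the 20 tight junction, desmosome and keratin genes 2 were higher (Dsc2 and Krt18) than with the vector, and 4 (Krt19, Cldn7, Ocln and Pkp2) were lower than with CA-NFATc3 alone. Against the vector, 3 of 18 ligands, receptors and Smads were higher and 2 lower, with Bmp2 at 2.72 ± 0.20 (adjusted p = 1.69e-06). Bmp2 too was under the floor on every vector array, and its rise was at least 4.91-fold with these set to the floor. The partners had 3 of 21 higher (Id2, Id3 and Tcf12), the other EMT-linked factors 2 of 10 higher and 1 lower, the epithelial factors 1 of 9 in each direction, the cadherins 2 of 7 higher (Cdh10 and Cdh9), and the catenins and intermediate filament genes 0 of 9 each. Cdh10 and, among the other EMT-linked factors counted as higher, Ets1 were under the floor on every vector array.

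Whether the effects of the 2 labels add up on the log2 scale was tested as an interaction, the difference between both plasmids and CA-NFATc3 minus that between Foxd3 and the vector. Twist1 was the only one of the 6 genes called (-1.79 ± 0.38, adjusted p = 0.0359), where 0.810% of all genes were called. It was tested only because its 3 CA-NFATc3 arrays and 1 array with both plasmids reached the floor. All its vector and Foxd3 arrays were under the floor, so its high group let it into the test and the call is a description. This call depended on the settings: the adjusted p was 0.132 without the offset of 32, 0.0546 without the filter on low signals and 0.0568 when every probe set was tested. It was also lost on leaving out any of 8 of the 12 arrays, with adjusted p from 0.0713 to 0.142. The term for Zeb1 was 0.46 ± 0.17 (adjusted p = 0.383) and that for Vim 0.23 ± 0.11 (adjusted p = 0.594). The term uses both groups in which the Foxd3 signal went against its label.

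None of the 6 genes tested was called on the arrays labelled Foxd3 against the vector by limma, and 2, Cdh2 and Vim, had an unadjusted p under 0.05, as did 14.1% of all genes tested. In this comparison 2.88% of all genes were called. Cdh2 read 439, 520 and 681 on the arrays labelled Foxd3, all above the vector arrays (0.51 ± 0.16, adjusted p = 0.107). Its other probe set overlapped, at 179, 144 and 112 on the arrays labelled Foxd3 and 99, 108 and 128 with the vector. Vim read 9636, 10471 and 10823, which overlapped with the vector (0.23 ± 0.08, adjusted p = 0.154). The brightest probe sets of Cdh2 and Vim passed in limma when arrays were weighted by their quality (adjusted p = 0.0257 and 0.0384). Twist1 read 62.9, 23.6 and 47.5, all under the floor, and Cdh1 read 8030, 8672 and 8284, within the range of the vector arrays. The smallest differences were those of Twist1 and Cdh1, at -0.01 ± 0.27 and -0.01 ± 0.07.

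Both plasmids against the arrays labelled Foxd3 also gave 0 of 6 calls by limma, with 0.327% of all genes called. Cdh2 and Snai2 had an unadjusted p under 0.05, as did 6.95% of all genes tested. Snai2 read 131, 106 and 179 on the arrays labelled Foxd3 and lay higher on every array with both plasmids (0.75 ± 0.27, adjusted p = 0.552), and Cdh2 overlapped (-0.38 ± 0.16, adjusted p = 0.634). Of the lists, those with calls for the arrays labelled Foxd3 against the vector were the cadherins (2 of 7 higher, Cdh10 at 1.28 ± 0.27 and Cdh9 at 0.86 ± 0.18), the intermediate filament genes (2 of 9 higher, Prph and Nefl), the other EMT-linked factors (2 of 10 higher, Ets1 and Sox4, and Tbx3 lower), the partners (Id2 higher of 21), the epithelial factors (Esrp1 higher and Klf4 and Klf5 lower of 9) and the ligands, receptors and Smads (Jag1 higher and Bmp4 and Smad7 lower of 18). Cdh10 and Ets1 were under the floor on every vector array, so only arrays of other groups let them into the test. With the vector arrays set to the floor, they rose by at least 1.12-fold and 1.64-fold. The mesenchymal list had 0 of 15, the tight junction list 0 of 20 and the catenins 0 of 9 called. Among all genes tested, 2.88% were called in this comparison.

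Across all 6 groups the genes fell into different orders, given here as a description because the transfected and the Foxd3fl/fl:Cre-ERT cells are separate experiments, so cell line, experiment and group cannot be told apart. Prrx1 and Twist2 had the same top 2 groups, tamoxifen (means 1197 and 717) and then DMSO (112 and 118), each clear of the next group, with all transfected arrays under the floor. Snai2 was highest with tamoxifen (mean 1049), and its other 5 groups, from 304 with DMSO to 138 with the vector, overlapped with their neighbours. Twist1 was highest with CA-NFATc3 (213), which overlapped with tamoxifen (142). That group overlapped with DMSO (98.7), and the other 3 groups lay under DMSO, between 40.1 and 44.7, and overlapped.

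Zeb1 was lowest with DMSO (mean 252), which overlapped with CA-NFATc3 (354). Above these, the vector (514), tamoxifen (550), both plasmids (560) and the arrays labelled Foxd3 (580) overlapped in turn. Cdh1 was highest with DMSO (14032), then tamoxifen (11082), both clear of the transfected groups, which overlapped between 8328 and 9065. Cdh2 (1377) and Vim (17885) were highest with tamoxifen, clear of all other groups, and lowest with CA-NFATc3 (298 and 8118), where each overlapped with its neighbour in the order. The genes whose signals followed those of Twist1 most closely over the 12 transfected arrays were Tmsb4x (Pearson r = 0.955), Nrp2 (0.946) and Mrps6 (0.946), of 11608 compared. Those for Zeb1 were Nup88 (0.958), Slc35f2 (0.935) and Ier5l (0.917), and those for Vim were Cyp2j13 (0.942), Klhl8 (0.941) and Lpar4 (0.939). These correlations describe arrays that share the 4 groups and carry no test.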

How the data were processed

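Total RNA was labelled with biotin and hybridised to Affymetrix mouse arrays, 1 sample per array. The deposited values are linear MAS5 signals, 1 intensity for each probe set, and the submitters' processing notes name MAS5 with no version. The mean without the lowest and highest 2% was 500 on every array, and all values were above 0. The sources used here do not state the background subtraction or the detection calls. Low signals of a probe set carry the background that MAS5 left, so levels were not compared between probe sets.

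Probe sets were named by the platform's annotation, in which 34945 had 1 symbol and 932 several. Of the former, 34741 were matched by Entrez number to the gene table of GRCm38.p6, with 0 symbols updated. Tests used log2(signal + 32). Each gene was tested by its probe set with the highest mean over all arrays, if at least 3 arrays of the fit reached 65.8, the median of all deposited values. Group means were compared with limma 3.58.1 (R 4.3.3; eBayes with trend), fitted to the 12 arrays of transfected cells (11609 genes) and the 6 arrays of Foxd3fl/fl:Cre-ERT cells (12093 genes), with two-sided p adjusted by Benjamini and Hochberg over all genes, and a second time over all probe sets. Where the dimmer group was under 65.8 on its arrays, they were set to 65.8 and the fold is given as at least. On simulated data, the test recovered 92% of changes of 1 on the log2 scale for CA-NFATc3 against vector (11609 genes) and 88% for tamoxifen against DMSO (12093 genes). Plots were made in matplotlib 3.10.9 (Python 3.11.15).

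Same-numbered transfected arrays correlated in their deviations from the group means at 0.104 to 0.315 in all 18 pairs, and arrays of different numbers at -0.282 to 0.0133, so equal numbers pair these samples as a hint from the data. The 3 pairs of Foxd3fl/fl:Cre-ERT arrays correlated at -0.0425 to 0.0152 and were not taken as paired. Alternatives were quantile normalization, other offsets and filters, the mean of a gene's probe sets, every probe set tested, a replicate block, array weights, all 18 arrays in 1 fit, the compared groups alone, and leaving out each array. Named genes were the 10 members, Foxd3, Nfatc3 and Rcan1, and called genes of a list with the 3 largest changes; other called genes of short counts were named after their values were seen. The members, the gene lists and the tests were chosen with earlier results of these data known, so the list counts are a description. Some listed genes are not analysed here. Labels describe replicates as biological, and p-values measure the spread between these arrays.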

Additional observations from a re-analysis of the deposited data

Results flagged for a closer look

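The Twist1 response to CA-NFATc3 differed with the Foxd3 label. The interaction on the log2 scale was -1.79 ± 0.38 (adjusted p = 0.0359, limma). Twist1 entered this test through its 3 CA-NFATc3 arrays and 1 array with both plasmids, with all vector and Foxd3 arrays under the floor. The call was lost in 11 of 22 other settings. The Foxd3 signal of these groups went against the label, at 237 on the arrays labelled Foxd3 and 443 on the vector arrays, and the cause of the difference was not tested.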

How the results depend on the processing

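Of 963 values of a single gene under other settings, 906 kept their direction and their side of the threshold, 21 lost a call, 5 gained one and 31 changed sign, 0 of the last called in either setting. With tamoxifen, the calls of Snai2, Twist2, Prrx1, Cdh1, Cdh2 and Vim held in all 16 settings tried. With CA-NFATc3 against the vector, Twist1 was called in all 23, at 1.35 to 2.30. Its vector arrays were all under the floor, and arrays with CA-NFATc3, alone or with Foxd3, let it past the main filter. Genes called among the 10 went from 0 to 2 for Foxd3 against vector with array weights, from 2 to 1 for CA-NFATc3 against vector with the mean of probe sets and to 1 to 2 on leaving out an array, from 1 to 2 for both against vector with all 18 arrays in 1 fit and to 0 to 1 on leaving out an array, from 3 to 2 for both against CA-NFATc3 with the mean of probe sets, and from 1 to 0 for the interaction with no offset, no filter or every probe set tested and to 0 to 1 on leaving out an array. With tamoxifen the count of 7 became 8 without the third DMSO array, and with the mean of probe sets it stayed 7, with Zeb2 called in place of Zeb1 and the Prrx1 change at 1.51. The Zeb2 mean takes in 3 probe sets that reached the floor on tamoxifen arrays alone. The cause of these shifts in calls was not tested.

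Signs turned only for uncalled values. Cdh1 in both against vector was 0.03 with quantile normalization and 0.01 with array weights, and Snai2 in the interaction was -0.13 with the mean of probe sets. Leaving out 1 array gave, for Foxd3 against vector, -0.29 to 0.26 for Snai2, -0.18 to 0.20 for Twist1 and -0.07 to 0.02 for Cdh1. It gave, for both against vector, -0.38 to 0.05 for Twist1 and -0.06 to 0.04 for Cdh1, and -0.06 to 0.33 for Snai2 in both against CA-NFATc3. For both against Foxd3 it gave -0.36 to 0.07 for Twist1, -0.13 to 0.00 for Zeb1 and -0.03 to 0.04 for Cdh1, and for the interaction -0.12 to 0.43 for Snai2 and -0.23 to 0.07 for Cdh2.

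The replicate block changed no call of the 10 genes. Over all genes it raised the calls from 334 to 783 (Foxd3 against vector), 680 to 1104 (CA-NFATc3), 559 to 1122 (both), 711 to 1258 (both against CA-NFATc3), 38 to 96 (both against Foxd3) and 94 to 245 (interaction). The mean of probe sets lowered them to 220, 506, 341, 523 and 25 in the first 5 of these, and leaving out 1 array to as low as 158, 349, 322, 385, 22 and 48. The tamoxifen count of 4165 ranged from 2978 to 4829. Signals under the floor limit Snai1 in all groups and Twist2, Zeb2 and Prrx1 in the transfected cells.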
